A study of Homo sapiens with 4 samples.

Results

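The aminoacyl-tRNA synthetase genes are described here in SUM159 cells, a metaplastic triple-negative breast cancer (MpBC) line, before and after knockout of NOS2, the gene of inducible nitric oxide synthase (iNOS). The genes were taken by their symbols from the 57500 genes of the count files, and they come to 36, of which 20 encode the cytosolic enzymes and 16 the mitochondrial ones (symbols ending in 2). All 36 passed the filter on low counts. RNA was sequenced from parental SUM159 cells (1 library, genotype Parental Control) and from 3 NOS2KO SUM159 clones (1 library each, Clone 1, Clone 5 and Clone 6), and neither group carries a further treatment in the labels. The clones came from cells that received a NOS2 double nickase plasmid, survived puromycin and were picked by their iNOS protein and their nitrite and nitrate. The control is the parental line, so the loss of NOS2, the selection and the growth from single clones cannot be told apart. The libraries held 90467395, 122171287, 101337366 and 97362293 counts on genes in the order parental, clone 1, clone 5 and clone 6. NOS2 itself had 2, 3, 18 and 1 counts in that order. The parental library already held almost no NOS2 mRNA, so the mRNA does not check the knockout. The clone 5 library had the most, 18 counts, and is called the library labelled clone 5. A count this low does not decide whether its label holds. Where 3 clone values stand side by side, they are in the order clone 1, clone 5 and clone 6.

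The line was checked against marker genes. VIM, CD44, KRT18 and FN1 were at 303 CPM or more in every library, while the hormone receptor genes ESR1 and PGR were under 1 CPM and ERBB2 was at 48.3 CPM in parental cells and 55.6 to 106 CPM in the clones. KRT5 and KRT14 were low or near 0 in most libraries (at most 5.75 CPM). Of 8 markers of other cells, 5 were under 1 CPM in every library (among them CD3E, HBB, ALB and EPCAM). The summed level of all 8 was 21.1 CPM in parental cells and 52.8 to 117 CPM in the clones, and this difference lay in PTPRC, the leukocyte antigen CD45, with 4.45 CPM in parental cells, with clone 1 at 68.4, the library labelled clone 5 at 105 and clone 6 at 41.7 CPM. Without PTPRC the sum was 16.6 CPM in parental cells and 11.1 to 14.3 CPM in the clones. Whether the cells behind PTPRC had a part in the results below was not tested.

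Aminoacyl-tRNA synthetases join each amino acid to its tRNA, the step that fixes how codons are read. The cytosolic enzymes serve translation on cytosolic ribosomes. Several of them sit in the multisynthetase complex with the scaffold proteins AIMP1, AIMP2 and EEF1E1. The mitochondrial enzymes are mostly encoded by separate nuclear genes and serve the few proteins made inside mitochondria. GARS and KARS supply both compartments from a single gene, and EPRS joins the glutamate and proline enzymes in a single chain. When amino acids run short or the endoplasmic reticulum is stressed, the integrated stress response raises translation of ATF4, a transcription factor whose known targets include many cytosolic synthetase genes along with genes of amino acid synthesis and uptake.

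To ask whether the synthetase genes differed between NOS2KO and parental cells, levels were expressed as counts per 1000000 of the library size after TMM scaling (CPM), and clones were tested against parental cells by edgeR's quasi-likelihood test over 22511 genes. Most cytosolic synthetase mRNAs were lower in the clones, while the fold changes of the mitochondrial ones lay on both sides of 0. Of the 20 cytosolic genes, 12 were lower and 1, QARS, was higher by a criterion of a p under 0.05, taken here before adjustment, and a log2 fold change beyond 1 in size, the limits of the study's volcano plot. Among all genes tested, 5.34% were lower and 4.24% higher by that criterion. Of the 16 mitochondrial genes, 1 met it, NARS2, which was lower. The median log2 fold change was -1.20 for the cytosolic genes, 0.04 for the mitochondrial genes and 0.10 for all genes tested. After Benjamini-Hochberg adjustment of the edgeR p over all genes, no member passed 0.05, and 0.259 was the smallest adjusted p among them. With DESeq2's Wald test, 11 cytosolic genes were lower and QARS higher at an adjusted p under 0.05, against 2.44% and 2.50% of all genes, and no mitochondrial gene had one. Without the library labelled clone 5, the cytosolic count was 13 and the mitochondrial count 0, with medians of -1.12 and 0.18. With a single parental library, the spread is that among the clones and is taken to hold for parental cells. For 1 library set against 3, the smallest p of an exact permutation test is 0.25. A lower level in bulk RNA may reflect fewer cells with the transcript or less of it per cell, which cannot be told apart here.

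**Figure D1:**
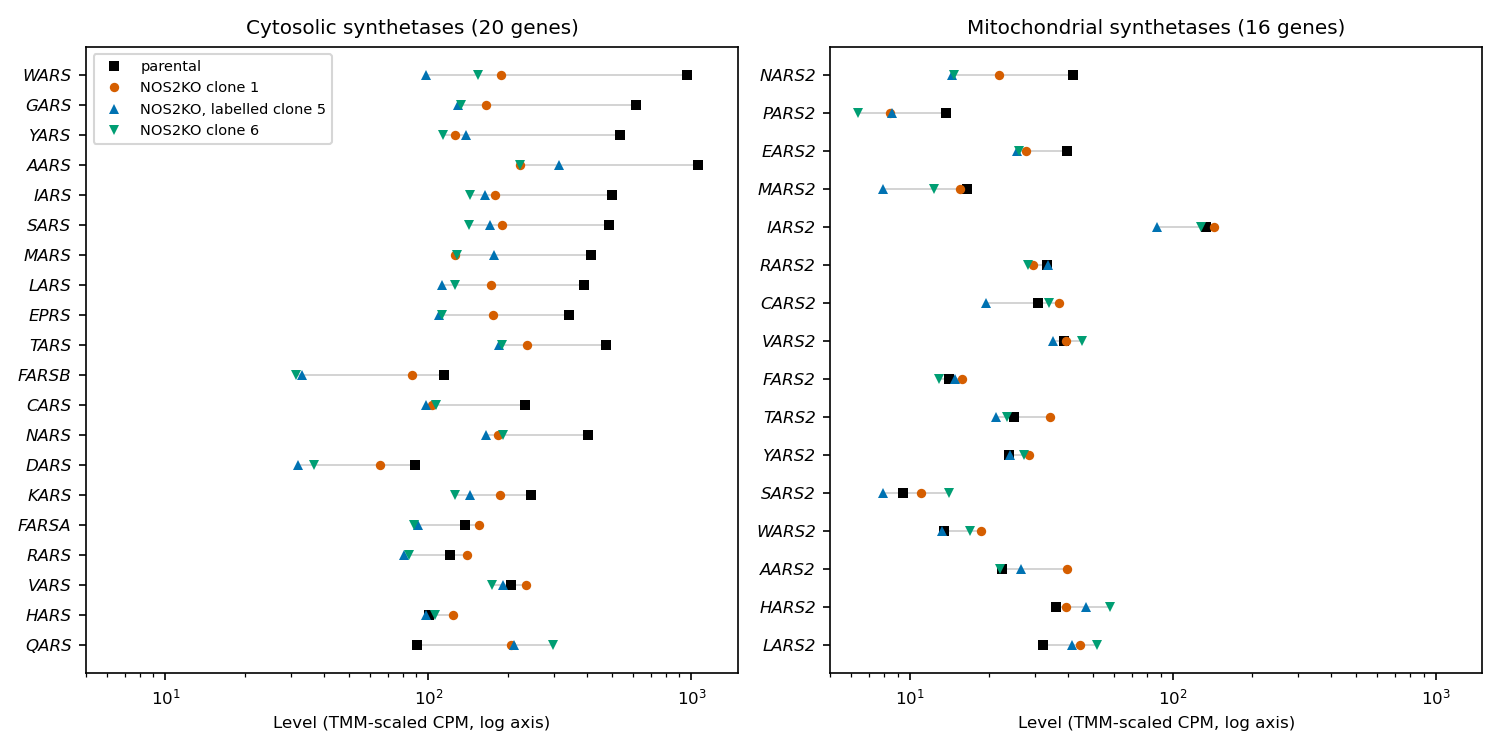
Level of each synthetase gene in each library, in TMM-scaled CPM on a log axis, with 20 cytosolic genes on the left and 16 mitochondrial genes on the right, ordered by fitted log2 fold change. The parental library (black squares) lies to the right of all 3 clones for 15 cytosolic genes and to the left of all 3 only for QARS, while for 9 mitochondrial genes it lies among the clones.

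Because 4 libraries are few, the levels themselves were compared. In all 3 clones 15 of 20 cytosolic genes were below the parental level and 1 was above it, against 4 and 3 of 16 mitochondrial genes, while 31.1% of all genes with counts in every library were lower and 28.9% higher in all 3 clones. A log2 ratio under -1 in all 3 clones was seen for 10 of 20 cytosolic genes, no mitochondrial gene and 5.84% of all genes. Counting error was small beside these differences. The lowest count of any cytosolic member was 3097 (FARSB), and the exact 95% interval of a single clone's log2 ratio over parental cells reached at most 0.0582 to either side for the cytosolic genes and 0.140 for the mitochondrial ones. Summed over the 20 cytosolic genes, the level was 7522 CPM in parental cells and 2910.2 ± 314 (SD, n = 3) in the clones, a 2.58-fold difference. Over the 16 mitochondrial genes the sums were 525 CPM and 501 ± 65.3 (SD, n = 3), which differed by less than the spread between the clones. The cytosolic sum was thus 14.3 times the mitochondrial sum in parental cells and 5.90, 6.41 and 5.20 times in the clones.

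The largest difference was that of WARS (ENSG00000140105, chromosome 14, 100333788 to 100376805 of GRCh38), the tryptophan enzyme, whose gene is also known to respond to interferon. It was at 963 CPM in parental cells, with clone 1 at 189, the library labelled clone 5 at 97.9 and clone 6 at 155 CPM. Each clone lay far below the parental level, with log2 ratios of -2.35 (-2.37 to -2.33), -3.30 (-3.33 to -3.27) and -2.64 (-2.66 to -2.61) and their exact 95% intervals. The fitted log2 fold change was -2.71 (SE 0.45, adjusted p = 0.275 in edgeR's test and 0.000125 with DESeq2). Exons of genes on the opposite strand cover 10.6% of its exon length, and whether the counting used strand is not given in the sources used here. GARS (ENSG00000106105, chromosome 7, 30594681 to 30634033), the glycine enzyme of both compartments, had 616 CPM in parental cells, with clone 1 at 166, the library labelled clone 5 at 129.7 and clone 6 at 133 CPM. The clones were close to each other and far below parental cells (log2 fold change -2.11, SE 0.31, adjusted p = 0.261 in edgeR's test and 2.71e-05 with DESeq2). YARS (ENSG00000134684, chromosome 1, 32775237 to 32818153), the tyrosine enzyme, had 537 CPM in parental cells, with clone 1 at 126, the library labelled clone 5 at 139 and clone 6 at 113 CPM, and the clones again lay close together (log2 fold change -2.09, SE 0.29, adjusted p = 0.259 in edgeR's test and 5.37e-06 with DESeq2). AARS (ENSG00000090861, chromosome 16, 70252295 to 70289543), the alanine enzyme, had 1060.2 CPM in parental cells, with clone 1 at 224, the library labelled clone 5 at 314 and clone 6 at 223 CPM. The library labelled clone 5 kept the most of it (log2 fold change -2.06, SE 0.36, adjusted p = 0.275 in edgeR's test and 0.000293 with DESeq2).

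A middle group of enzymes showed smaller differences of the same direction. IARS, the isoleucine enzyme, had 498 CPM in parental cells against 179, 165 and 143 CPM in the clones (log2 fold change -1.62, SE 0.30). SARS, the serine enzyme, had 485 CPM in parental cells against 189.6, 172 and 142 CPM in the clones (log2 fold change -1.53, SE 0.32). Both were lowest in clone 6, and every clone was far from the parental level. MARS (ENSG00000166986, chromosome 12, 57475445 to 57517569), which charges the initiator as well as the elongator methionine tRNA, had 416 CPM in parental cells against 127, 177 and 129 CPM in the clones (log2 fold change -1.53, SE 0.34). Its exons overlap those of DDIT3 and ARHGAP9 on the opposite strand over 12.4% of their length, and DDIT3 was itself lower in the clones, by a log2 fold change of -3.34. The part of DDIT3 reads in the MARS counts was not tested. LARS, the leucine enzyme and a known leucine sensor for mTORC1, had 392 CPM in parental cells against 173, 113 and 126 CPM in the clones (log2 fold change -1.52, SE 0.36). EPRS, the enzyme of glutamate and proline, had 342 CPM in parental cells against 175, 109 and 113 CPM in the clones (log2 fold change -1.37, SE 0.40). For LARS and EPRS clone 1 kept more than the other clones did. TARS, the threonine enzyme, had 474 CPM in parental cells against 238, 185 and 191 CPM in the clones (log2 fold change -1.21, SE 0.32). CARS, the cysteine enzyme, had 232 CPM in parental cells against 103, 97.9 and 107 CPM in the clones (log2 fold change -1.18, SE 0.27). NARS, the asparagine enzyme, had 403 CPM in parental cells against 184, 165 and 191 CPM in the clones (log2 fold change -1.16, SE 0.29). In CARS and NARS the clones lay close together, with clone means of 103 ± 4.57 (SD, n = 3) and 180.2 ± 13.4 (SD, n = 3) CPM. The adjusted p of these 8 genes lay between 0.275 and 0.344 in edgeR's test and between 0.00156 and 0.0915 with DESeq2, where EPRS had the last value and the others were under 0.05. Without clone 6, EPRS and TARS missed the criterion.

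QARS (ENSG00000172053, chromosome 3, 49095932 to 49105135), the glutamine enzyme and a member of the multisynthetase complex, was the exception among the 20. It had 90.6 CPM in parental cells, with clone 1 at 206, the library labelled clone 5 at 211 and clone 6 at 298 CPM. All 3 clones were above the parental level, with log2 ratios of 1.19 (1.15 to 1.22), 1.22 (1.18 to 1.26) and 1.72 (1.68 to 1.75) and exact 95% intervals. The clone mean was 238 ± 51.5 (SD, n = 3) CPM, and the fitted log2 fold change was 1.40 (SE 0.35, adjusted p = 0.345 in edgeR's test and 0.0311 with DESeq2). No exon of another gene overlaps it, and its direction was the same under all scalings tried.

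The other 7 cytosolic genes did not meet the criterion. FARSB, which encodes the beta subunit of the phenylalanine enzyme, had 115 CPM in parental cells against 86.3, 33.0 and 31.4 CPM in the clones (log2 fold change -1.19, SE 0.69). Its partner FARSA, the alpha subunit, had 138 CPM in parental cells against 155, 91.5 and 88.1 CPM in the clones (log2 fold change -0.30, SE 0.44). In both genes clone 1 stood apart from the other clones, which were 1.42 lower for FARSB and 0.79 lower for FARSA on the log2 scale, and FARSA of clone 1 was above the parental level. DARS, the aspartate enzyme, also had its highest clone level in clone 1, with 89.1 CPM in parental cells against 65.4, 32.0 and 36.8 CPM in the clones (log2 fold change -0.99, SE 0.49). KARS, the lysine enzyme of both compartments, had 246 CPM in parental cells against 187, 144 and 126 CPM in the clones (log2 fold change -0.69, SE 0.34). RARS, the arginine enzyme, had 120.4 CPM in parental cells against 140.2, 81.0 and 84.2 CPM in the clones (log2 fold change -0.24, SE 0.43). VARS, the valine enzyme, had 206 CPM in parental cells against 235, 193 and 174 CPM in the clones (log2 fold change -0.04, SE 0.32). In RARS and VARS the parental level lay between that of clone 1 and those of the other clones, and the sign of the fold change of VARS was reversed with upper quartile scaling. HARS, the histidine enzyme, had 100.2 CPM in parental cells against 124, 98.0 and 106 CPM in the clones (log2 fold change 0.12, SE 0.29), with exons that overlap those of HARS2, WDR55 and DND1 over 18.3% of their length. Their adjusted p lay between 0.489 and 0.974 in edgeR's test. Without clone 1, DARS (log2 fold change -1.37) and FARSB (-1.83) met the criterion.

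**Figure D2:**
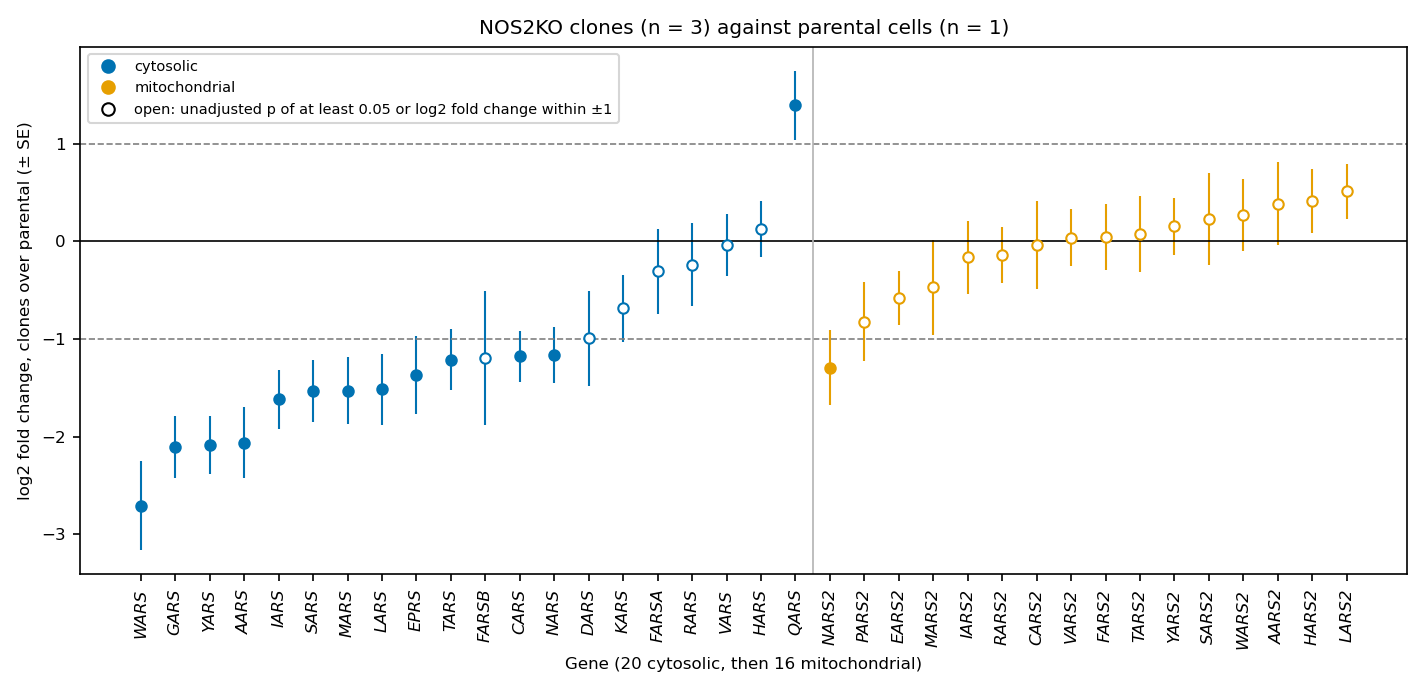
Fitted log2 fold change of the NOS2KO clones over parental cells for each synthetase gene, with its standard error as the bar, for 20 cytosolic genes in blue and 16 mitochondrial genes in orange. Filled points meet the criterion (13 cytosolic, 1 mitochondrial) and dashed lines stand at a log2 fold change of -1 and 1.

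Among the mitochondrial enzymes, the lowest fold changes belonged to NARS2, PARS2 and EARS2. NARS2 (ENSG00000137513, chromosome 11, 78435961 to 78574874), the mitochondrial asparagine enzyme, had 41.8 CPM in parental cells, with clone 1 at 21.9, the library labelled clone 5 at 14.5 and clone 6 at 14.7 CPM. It was lower in each clone (log2 fold change -1.29, SE 0.38, adjusted p = 0.345 in edgeR's test and 0.102 with DESeq2), and it missed the criterion without the library labelled clone 5 and without clone 6. PARS2, the proline enzyme, had 13.7 CPM in parental cells against 8.40, 8.54 and 6.39 CPM in the clones (log2 fold change -0.82, SE 0.41). EARS2, the glutamate enzyme, had 39.5 CPM in parental cells against 27.7, 25.7 and 26.0 CPM in the clones (log2 fold change -0.58, SE 0.27). Both were below the parental level in the 3 clones without meeting the criterion. The highest fold changes belonged to LARS2, HARS2 and AARS2. LARS2, the leucine enzyme, had 32.2 CPM in parental cells against 44.6, 41.4 and 51.6 CPM in the clones (log2 fold change 0.51, SE 0.28). HARS2, the histidine enzyme, had 36.1 CPM in parental cells against 39.2, 47.0 and 58.0 CPM in the clones (log2 fold change 0.42, SE 0.33), with exons that overlap those of HARS and ZMAT2 over 21.8% of their length. AARS2, the alanine enzyme, had 22.5 CPM in parental cells against 39.6, 26.4 and 22.1 CPM in the clones (log2 fold change 0.39, SE 0.43). LARS2 and HARS2 were above parental cells in every clone and AARS2 in 2 of 3, none of them past the criterion. The other 10 genes (CARS2, FARS2, IARS2, MARS2, RARS2, SARS2, TARS2, VARS2, WARS2 and YARS2) had log2 fold changes from -0.47 (MARS2) to 0.27 (WARS2). Of these, MARS2 was lower and YARS2 higher in all 3 clones, and in the other 8 the clones lay on both sides of the parental level. Of these 10, SARS2 shares 57.0% of its exon length with MRPS12 and AC011455.2 and VARS2 22.0% with GTF2H4, so their counts are uncertain. Leaving out the 6 members with an overlap of at least 10%, a choice made after the data were seen, gave medians of -1.19 and -0.04 for the cytosolic and mitochondrial genes.

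Enzymes for the same amino acid were then compared directly. In 13 amino acids, 1 cytosolic gene has 1 mitochondrial partner. The cytosolic gene was lower relative to its partner in all 3 clones in 9 of these pairs and higher in none, and the median difference in fitted log2 fold change was -1.29. The tryptophan pair differed most. The ratio of WARS to WARS2, per length of exon, was 43.1 in parental cells and 6.11, 4.48 and 5.52 in the clones. The same ratio of AARS to AARS2 was 45.0 in parental cells and 5.39, 11.4 and 9.64 in the clones. For YARS and YARS2 it was 5.89 in parental cells and 1.16, 1.51 and 1.09 in the clones. The mean difference in log2 ratio between partners was -3.02 ± 0.23 (SD, n = 3 clones) for tryptophan, -2.42 ± 0.57 for alanine and -2.25 ± 0.25 for tyrosine. In the asparagine pair both genes were lower, and the difference of 0.16 ± 0.32 was within the spread between clones. The same held for histidine (-0.28 ± 0.41), arginine (-0.15 ± 0.50) and valine (-0.08 ± 0.34). EPRS was lower relative to both of its partners, by a mean log2 difference of -0.82 against EARS2 and -0.57 against PARS2. All pairs share the same 4 libraries, and no test was made over the pairs.

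**Figure D3:**
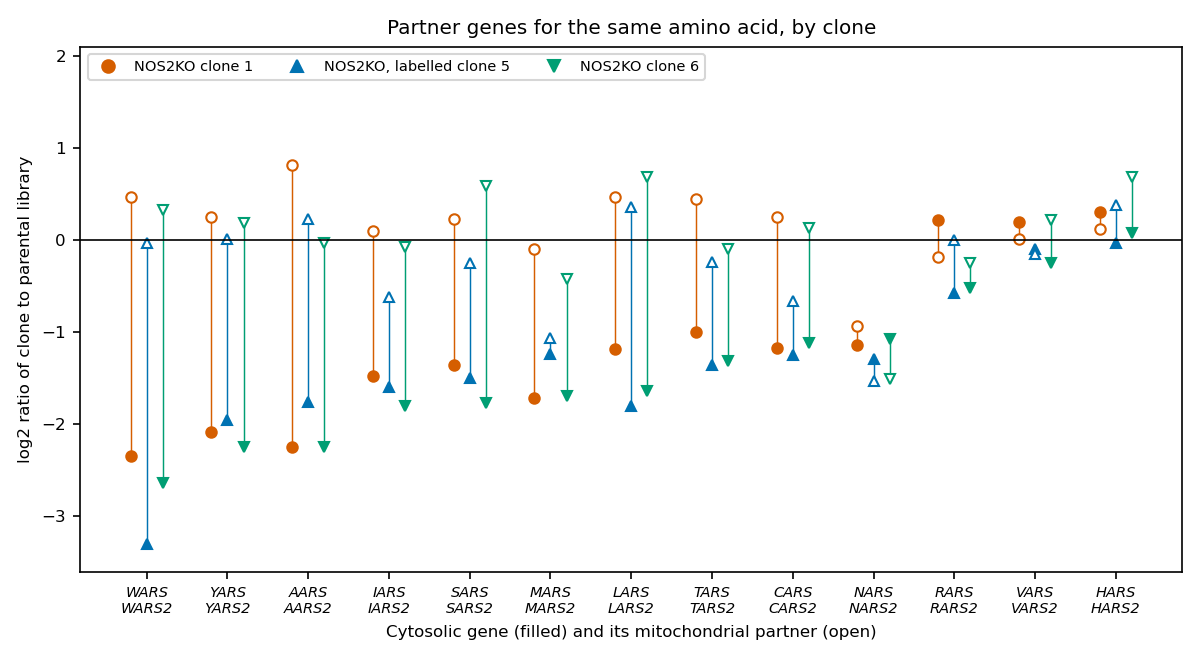
Log2 ratio of each NOS2KO clone to the parental library for the cytosolic gene (filled) and its mitochondrial partner (open) of 13 amino acids, with a line joining partners in the same clone. The filled points lie below the open ones in every clone for 9 pairs, and the partners lie close together or cross for NARS, RARS, VARS and HARS.

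Levels were also compared per kilobase of the exon length that the files give for each gene, so that genes of different length can be set side by side. In parental cells the cytosolic genes ran from 11.9 CPM per kb (HARS) to 236 (AARS), a 19.8-fold range, with a median of 59.8. In the clones the range was 6.20-fold, 8.77-fold and 6.89-fold, with medians of 35.4, 24.4 and 24.5 CPM per kb. The SD of log2 CPM per kb over the 20 genes was 1.10 in parental cells and 0.73 to 0.86 in the clones. The mitochondrial genes had medians of 5.98 CPM per kb in parental cells and 4.91 to 6.83 in the clones, and their SD was 0.91 in parental cells and 0.88 to 0.98 in the clones. The highest cytosolic gene per length was AARS in parental cells and in the library labelled clone 5, FARSA in clone 1 and QARS in clone 6, and the highest mitochondrial gene was IARS2 in all 4 libraries.

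The cytosolic genes were next grouped by what is known of them. A list of 12 synthetases commonly named as ATF4 targets holds AARS, CARS, EPRS, GARS, IARS, LARS, MARS, NARS, SARS, TARS, WARS and YARS. All 12 met the criterion and were lower in the clones, with a median log2 fold change of -1.53, against 5.34% of all genes tested. The other 8 (DARS, FARSA, FARSB, HARS, KARS, QARS, RARS and VARS) had a median of -0.27, and the only one past the criterion was QARS, which was higher. The list was written with earlier results of these data known and is not independent evidence of its direction. Summed, the 12 genes had 6417 CPM in parental cells and 1901 ± 157 (SD, n = 3) in the clones, while the other 8 had 1104 and 1009 ± 168 (SD, n = 3), a difference smaller than the spread between clones. The multisynthetase complex holds genes of both kinds. Of its 8 synthetases (DARS, EPRS, IARS, KARS, LARS, MARS, QARS and RARS), 4 were lower and 1 higher by the criterion, with a median of -1.18, and of the 12 cytosolic members outside it 8 were lower, with a median of -1.20. By catalytic class, 6 of 9 class I genes were lower and 1 higher (median -1.52) and 5 of 10 class II genes were lower (median -1.18), with EPRS, which has a domain of each class, left out.

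Since genes of the ATF4 list were lower together, the promoters of the members were searched for the letters that ATF4 and its partners of the C/EBP family are known to bind. RefSeq promoters (GRCh38.p14, 250 bases before to 50 bases after the start site) were at hand for 16 cytosolic and 14 mitochondrial genes, and those of DARS, LARS, VARS, YARS, AARS2 and VARS2 were not analysed here. Only the first promoter listed for each gene was searched, so other start sites were left out. The windows of CARS2 (chr13:110706466-110706765, minus strand) and MARS (chr12:57487818-57488117, plus strand) lie well inside the annotated genes. On their strands CARS2 begins at 110713603 and MARS at 57475445. The motif TGATGNAA, read on both strands, was found in 6 of the 16 cytosolic promoters (37.5%) and in 1 of the 14 mitochondrial ones (7.14%), against 3.67% of 27305 promoters. The 6 genes, AARS, CARS, IARS, MARS, NARS and TARS, are all on the ATF4 list, of which 10 promoters were searched, and none of the 6 other cytosolic promoters held it. That list holds the same 12 cytosolic genes that were lower by the criterion, and it was written with earlier results of these data known. A split of the promoters by the list is thus also a split by fold change and is not independent evidence. The windows around the matches, 30 bases each and written 5′ to 3′ on the strand of the gene, are shown because they carry the motif, which stands in capitals. They lie at AARS (chr16:70289675-70289704, minus strand), CARS (chr11:3057407-3057436, minus strand), IARS (chr9:92293692-92293721, minus strand), MARS (chr12:57488053-57488082, plus strand), NARS (chr18:57621804-57621833, minus strand), TARS (chr5:33440956-33440985, plus strand) and YARS2 (chr12:32756076-32756105, minus strand) of GRCh38.p14.
AARS: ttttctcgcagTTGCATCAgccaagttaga
CARS: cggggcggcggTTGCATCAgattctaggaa
IARS: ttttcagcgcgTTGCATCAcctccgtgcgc
MARS: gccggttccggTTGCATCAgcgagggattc
NARS: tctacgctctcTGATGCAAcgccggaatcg
TARS: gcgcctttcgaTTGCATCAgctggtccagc
YARS2: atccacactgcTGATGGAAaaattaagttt

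The 6 cytosolic genes share the same 8 letters, read as TGATGCAA on 1 strand or TTGCATCA on the other, while YARS2 has TGATGGAA. In CARS, IARS, MARS, NARS and TARS the first letter of the match, as printed, lay within 14 bases of the start site of the promoter searched. In AARS it lay 187 bases before that site. The motif was not found in the windows of EPRS, GARS, SARS and WARS, which were lower in the clones as well, nor in that of QARS. Of 13 promoters searched among the genes linked to ATF4 outside the synthetases, listed below, 3 (23.1%) held it. Those of TRIB3, DDIT3, SESN2, PSAT1 and SLC7A5 did not. The letters TGACGTCA, the cyclic AMP response element, were in no promoter of a synthetase searched, against 1.98% of all promoters. A match is a description of the sequence and does not show that a factor was bound.

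Genes outside the synthetases that are linked to ATF4 were counted as well. Of a list of 14 that holds ATF4 and genes known to be linked to it, 12 met the criterion, all lower in the clones, against 5.34% of all genes tested that were lower by it, and the median log2 fold change was -2.87. They were, with their log2 fold changes, CHAC1 (-5.79), which degrades glutathione, ASNS (-3.98), asparagine synthetase, TRIB3 (-3.96), a pseudokinase, SLC7A5 (-3.52) and SLC3A2 (-3.14), the 2 chains of a leucine transporter, PSAT1 (-3.37) of serine synthesis, DDIT3 (-3.34), the factor CHOP, SLC7A11 (-2.61), the cystine transporter, CEBPB (-2.39), SESN2 (-2.31), DDIT4 (-1.63) and ATF4 itself (-1.39). ATF4 mRNA was at 593 CPM in parental cells, with clone 1 at 157, the library labelled clone 5 at 248 and clone 6 at 273 CPM. PHGDH (log2 fold change -1.16, SE 0.56) and VLDLR (log2 fold change 1.59, SE 0.60) did not meet the criterion, and VLDLR was higher in each clone. The adjusted p of the 14 lay between 0.182 (CHAC1) and 0.484 (PHGDH) in edgeR's test. WARS can also be set beside a list of 10 interferon genes, of which 2 met the criterion, against the same 5.34% lower and 4.24% higher of all genes: IRF1 (log2 fold change -1.71, SE 0.42) and ISG15 (log2 fold change -1.48, SE 0.51), both lower. The other 8 had log2 fold changes on both sides of 0, and the median of the list was -0.07. Both lists were chosen with earlier results of these data known, so their counts are not independent evidence of direction. The part of either programme in the level of the synthetases was not tested.

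Other genes of tRNA charging and of elongation were measured in the same libraries. Of the 3 scaffold genes of the multisynthetase complex, AIMP1, with 73.7 CPM in parental cells against 44.6, 26.5 and 29.9 CPM in the clones (log2 fold change -1.13, SE 0.39), and EEF1E1, with 20.4 CPM in parental cells against 10.8, 9.07 and 6.50 CPM in the clones (log2 fold change -1.21, SE 0.44), met the criterion and were lower. AIMP2 had 56.6 CPM in parental cells against 74.8, 30.4 and 41.5 CPM in the clones (log2 fold change -0.21, SE 0.56), with clone 1 above and the others below parental cells. None of 8 further charging genes met it. The smallest p in that list belonged to TARSL2 (log2 fold change -0.82, SE 0.38), a second cytosolic threonine enzyme, QRSL1 (log2 fold change -0.87, SE 0.45), a subunit of the mitochondrial enzyme that makes glutaminyl-tRNA, and SEPSECS (log2 fold change -0.62, SE 0.36), which acts in selenocysteine synthesis on its tRNA. None of 5 cytosolic elongation factor genes met the criterion, and all 5 fitted fold changes were above 0, from 0.07 (EEF1B2) to 0.67 (EEF1D). EEF1B2 was above the parental level only in clone 1, with 296 CPM in parental cells against 522, 170 and 245 CPM in the clones. EEF2 had 2683 CPM in parental cells against 3619.8, 3826 and 4842 CPM in the clones (log2 fold change 0.61, SE 0.39). EEF1G had at most 1.55 CPM, and a second annotated gene, AP002990.1, covers its locus. Of the 4 mitochondrial elongation factor genes, TUFM, TSFM, GFM1 and GFM2, none met the criterion, and their median was -0.15. The adjusted p of all these genes was 0.384 or more in edgeR's quasi-likelihood test.

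**Figure D4:**
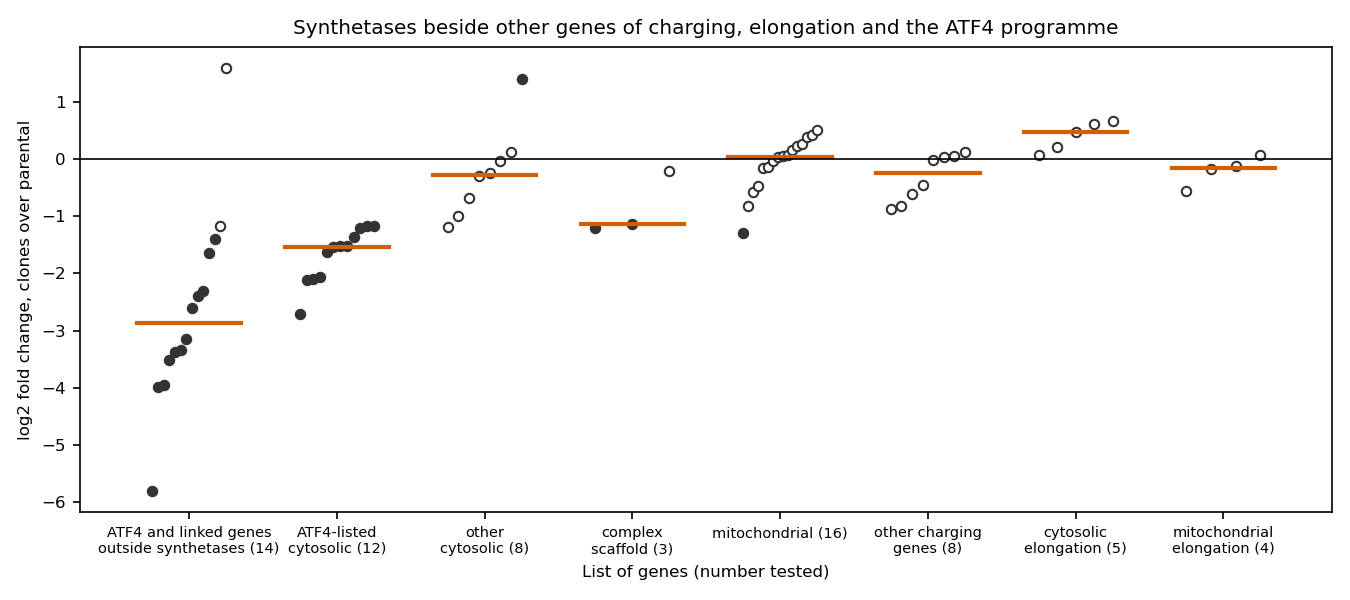
Fitted log2 fold change of the NOS2KO clones over parental cells for each gene (points) of 8 lists, with the median of each list as an orange bar and filled points for genes that meet the criterion. All 12 ATF4-listed synthetases lie below -1 with a median of -1.53, between the genes linked to ATF4 (-2.87) and the mitochondrial synthetases (0.04).

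The clones were not alike. The median log2 ratio over parental cells across the 20 cytosolic genes was -1.06, -1.42 and -1.46 in the 3 clones, and over the 16 mitochondrial genes 0.14, -0.19 and -0.05. The difference between these medians was -1.21, -1.23 and -1.41, so it was seen in each clone. Over all genes tested the medians were -0.07, 0.02 and -0.00 in the same order. Set against the mean of the other 2 clones, clone 1 was higher for 29 of the 36 members. The 8 cytosolic genes outside the ATF4 list had a median difference of 0.62 (log2), with FARSB (1.42), DARS (0.93), FARSA (0.79) and RARS (0.76) farthest above. The 12 genes on the list had a median difference of 0.25 and the mitochondrial genes one of 0.19. QARS, AARS and MARS were lower in clone 1 than in the mean of the others, by differences of -0.28, -0.24 and -0.25. Each clone is a single library, so differences between clones have no replicate check.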

How the data were processed

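RNA was sequenced from parental SUM159 cells and from 3 NOS2KO clones, 1 library each. The deposited files hold raw counts of reads per gene, which the authors made, per the submitters' processing notes, with bcl2fastq 2.17, Trimmomatic 0.36, STAR 2.5.2b and featureCounts of Subread 1.5.2 on GRCh38. The strand setting of the counting and the treatment of reads that fit several genes are not given in the sources used here. Symbols came from GENCODE 29 and matched 56898 of 57500 gene identifiers.

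The analysis used edgeR 4.0.16 in R 4.3.3. Genes passing filterByExpr (22511) were scaled by TMM, and clones were tested against parental cells by the quasi-likelihood test with Benjamini-Hochberg adjustment, with DESeq2 1.42.0 as an alternative. The criterion, a p under 0.05 and a log2 fold change beyond 1 in size, takes its limits from the study and uses the p before adjustment. With 1 parental library the p-values measure the spread between clones, and exact (Clopper-Pearson) 95% intervals of single ratios cover counting error only. Libraries of 90467395 to 122171287 counts put the limit of 3 counts at 0.0246 to 0.0332 CPM.

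The members and gene lists were chosen with earlier results of these data known. All cytosolic genes are named, with values for mitochondrial genes with a p under 0.05 or among the 3 largest rises or falls, and in other lists for genes past the criterion or else the 3 with the smallest p. EEF1B2, PHGDH, VLDLR, AIMP2 and the cell markers were named beyond this, after their values were seen. The alternatives were another scaling, filter, test or threshold, each clone left out or used alone, and GARS and KARS left out. Leaving out members that overlap other genes by at least 10% of their exon length was added after the data were seen. A few results on single genes and 1 promoter motif are not reported here.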

Additional observations from a re-analysis of the deposited data

How the results depend on the processing

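The count of 13 cytosolic genes past the criterion was 13 under each other test, scaling and filter and 11 to 15 when 1 clone was left out. It was 12 without GARS and KARS, 11 without overlapping members and 0 with an adjusted p under 0.05 in edgeR's test, where the mitochondrial count was 0 as well. The mitochondrial count of 1 ranged from 0 to 1 when a clone was left out. Leaving out a clone gave medians of -1.41 to -1.12 for the cytosolic genes and -0.06 to 0.18 for the mitochondrial genes, and -1.34 to -1.18 for their difference. With clone 6 alone the cytosolic median was -1.46 and the difference -1.41, and with the library labelled clone 5 alone the mitochondrial median was -0.19. The log2 fold change changed sign with upper quartile scaling for VARS (0.063) and CARS2 (0.061). It also changed sign when a clone was left out, with ranges of -0.16 to 0.061 for VARS, -0.21 to 0.22 for CARS2, -0.013 to 0.13 for FARS2, -0.32 to 0.040 for IARS2, -0.16 to 0.23 for TARS2 and -0.060 to 0.14 for VARS2. The cause was not tested. Of the 14 members past the criterion, 11 stayed past it in all 12 alternatives with a test. The adjusted p of the 14 ranged from 5.37e-06 to 0.757 over the alternatives, edgeR's test and DESeq2 included. The exceptions were EPRS and TARS without clone 6 and NARS2 without clone 5 or clone 6. Upper quartile scaling moved the median of all genes from 0.10 to 0.20. No paired analysis was possible because there is a single parental library. With 1 parental library, no spread among parental cells can be measured, and members at low counts such as PARS2 are the least precise.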
